A study of Mus musculus with 7 samples.

Results

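Peroxisome genes were described in newborn mouse liver, from 42 genes that encode peroxins, peroxisomal membrane transporters and peroxisomal enzymes. A gene was included when the platform annotation gave it as the only symbol of at least 1 probe set, and the 42 genes had 81 probe sets, out of 18193 genes so named on the array. The 42 are 13 peroxins, 7 membrane transporters, 12 enzymes of beta oxidation, 2 of alpha oxidation, 3 of ether lipid synthesis, and 5 that hydrolyse coenzyme A derivatives or remove peroxide or epoxides. They are not every peroxisomal gene, and the transporter Abcd4 is known to sit in lysosomes. The livers came from 4 glycerol kinase knockout males (knockout 1 to 4) and 3 wild type males that were their littermates (wild type 1 to 3), all C57BL/6J and taken on day of life 1, and each liver was measured on its own Affymetrix mouse 430 2.0 array. Glycerol kinase phosphorylates glycerol, and the series' design text describes knockout pups of this age as free of symptoms. The sources used here give neither the allele nor the litters.

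Peroxisomes are organelles that shorten very long, branched and dicarboxylic fatty acids and bile acid precursors, and that make the first part of ether lipids. Peroxins insert proteins into the membrane, import enzymes into the matrix after they fold, and divide the organelle. In rodent liver the receptor PPAR alpha, which fatty acids switch on, is known to drive many genes of peroxisomal beta oxidation by binding a repeat of the element AGGTCA spaced by 1 base.

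Each gene is represented by its probe set of highest mean over the 7 arrays, and a value is the deposited intensity, in arbitrary units on a linear scale. Knockout was compared with wild type with limma on log2(intensity + 16), over all 22518 probe sets whose mean passed the median of the table, and a change was called where p, after Benjamini-Hochberg adjustment, was under 0.05. Of the 42 genes 41 passed that filter, and Acox3, an acyl-CoA oxidase for branched chains, did not. In total 11 rose in knockout liver and 0 fell, with limma. At an unadjusted p under 0.05 the counts were 21 higher and 1 lower, against 12.3% and 10.2% of all genes tested. Over all 11159 genes tested by the same rule, 3.09% were called higher and 1.67% lower, and over all tested probe sets 2.35% and 1.89%. By probe set, 15 of the 68 tested ones of these genes were called higher and 0 lower. The count of 11 depended on which array was left out. Leaving out wild type 1 or 2 gave 6, and leaving out wild type 3 gave 4. Leaving out knockout 2 gave 7, knockout 4 gave 5, and knockout 1 or 3 gave 10. Calls over the whole table, 955 probe sets, also fell, to 341, 288 and 127 without wild type 1, 2 and 3. Abcd3, Ehhadh, Hsd17b4 and Acaa1b passed whichever array was left out.

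**Figure D1:**
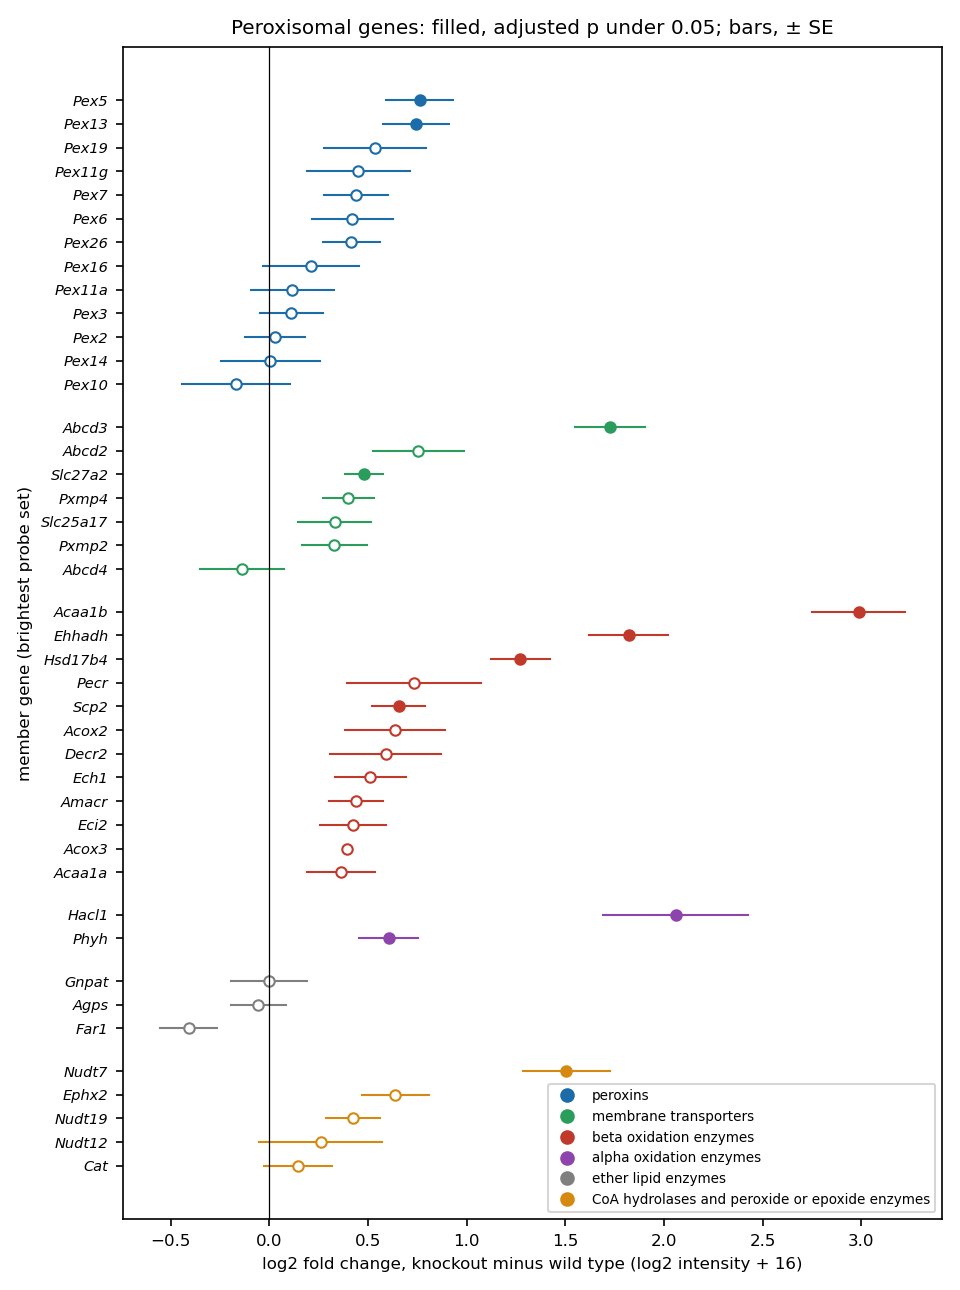
Log2 fold change of each of the 42 genes, knockout minus wild type, on the x axis, by its brightest probe set, with bars of 1 standard error from limma. The 11 filled points passed an adjusted p of 0.05 and lie right of 0, while the 3 ether lipid genes lie at or left of 0 (Agps and Gnpat just right of 0 under median scaling). Acox3 was not tested and has no bar.

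Without any test, 37 of the 42 log2 fold changes were above 0 and 5 below, and the median was 0.43, against -0.0071 over all named genes. In 19 of the 42 genes every knockout array lay above every wild type array, and in 1 gene, Far1, every one lay below. Over all tested genes those shares were 11.7% and 10.4%. The medians by class were 1.33 for alpha oxidation, 0.61 for beta oxidation, 0.42 for the coenzyme A hydrolases with the peroxide and epoxide enzymes, 0.41 for peroxins, 0.40 for membrane transporters and -0.06 for ether lipid synthesis. The median of the peroxins was 0.17 without wild type 1.

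The arrays themselves differed in ways that touch these values. Wild type 1 was the lowest of the wild type arrays in 25 of the 42 genes, wild type 3 in 12 and wild type 2 in 5. Such counts were not made over all genes. In genes such as Acox2, Decr2, Pex6 and Hacl1 wild type 1 lay well under wild type 2 and 3. Knockout 3 had the highest 3' to 5' ratio of the 7 arrays in every control transcript, such as 11.1 for the transferrin receptor against 7.22 to 7.32 in the other knockout arrays and 7.91 to 8.24 in wild type. Hepatocyte markers were present on every array, with a summed intensity over 9 measured genes of 241023 to 317099 in knockout and 248394 to 276532 in wild type, and 0 of them passed with limma in either direction. At an unadjusted p under 0.05, 1 was higher, against 12.3% higher and 10.2% lower over all genes tested. Of 6 tested markers of red cell precursors 2 fell, against 1.67% of all genes tested. At an unadjusted p under 0.05 all 6 were lower, against 10.2%. In 5 of the 7 measured ones every knockout array lay below every wild type array, against 10.4% of all genes tested. The summed intensity of these 7 was 43900 to 47700 in knockout, against 57646 to 63003 in wild type. Of the T cell markers Itgae fell, at 180.5 to 528.1 in knockout against 828.9 to 1615 in wild type. Cd3e and Cd3g were too dim to be tested. The summed intensity of these 3 was 210.3 to 567.2 in knockout, against 906.3 to 1703 in wild type, and most of it was Itgae. In whole liver, fewer cells of a type and less RNA per cell cannot be told apart. Markers of neutrophils, Kupffer cells, endothelium, stellate cells and bile ducts had 0 calls with limma, with 0 to 3 per list at an unadjusted p under 0.05. The summed intensity of the 6 endothelial markers was nevertheless 7198 to 12648.5 in knockout, against 12709 to 15213 in wild type, without overlap. The markers in this sum did not all move the same way. Stab2 and Lyve1 had every knockout array below every wild type array (log2 fold changes -0.51 and -0.71). Tek had every knockout array above (0.61), and the groups of Pecam1, Cdh5 and Kdr overlapped. The kidney and intestine markers Umod, Slc34a1 and Vil1 were too dim to be tested, while Fabp2 rose by 1.99 on the log2 scale (limma adjusted p = 0.0310). The part of these differences in the values of the peroxisomal genes was not tested.

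Sequence upstream of the genes is shown first for the thiolase genes Acaa1b, which passed the test, and Acaa1a, which did not, and then for 2 genes that rose and hold the element AGGTCA upstream. Each run is the 250 bases before the annotated start, 5′ to 3′ on the gene's strand, from RefSeq on GRCm38.p6, with that element in capitals (TGACCT where it lies on the other strand). The stretches are chr9:119157094-119157343 (minus strand) for Acaa1b, chr9:119341044-119341293 (plus) for Acaa1a, chr2:126552774-126553023 (plus) for Slc27a2 and chr4:108118548-108118797 (minus) for Scp2.
Acaa1b: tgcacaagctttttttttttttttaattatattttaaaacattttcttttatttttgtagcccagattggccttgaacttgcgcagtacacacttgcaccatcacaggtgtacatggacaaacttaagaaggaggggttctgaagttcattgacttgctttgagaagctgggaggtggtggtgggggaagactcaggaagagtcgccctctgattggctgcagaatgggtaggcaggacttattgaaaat
Acaa1a: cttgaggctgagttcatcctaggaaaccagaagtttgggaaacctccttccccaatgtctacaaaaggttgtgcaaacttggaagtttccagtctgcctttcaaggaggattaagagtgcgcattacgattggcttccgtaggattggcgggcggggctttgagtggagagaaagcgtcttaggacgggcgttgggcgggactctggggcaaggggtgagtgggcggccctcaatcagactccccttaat
Slc27a2: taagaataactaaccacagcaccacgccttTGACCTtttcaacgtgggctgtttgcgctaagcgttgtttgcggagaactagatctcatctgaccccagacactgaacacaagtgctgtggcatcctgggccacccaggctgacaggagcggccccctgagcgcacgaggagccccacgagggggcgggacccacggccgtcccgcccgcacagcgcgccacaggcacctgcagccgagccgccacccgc
Scp2: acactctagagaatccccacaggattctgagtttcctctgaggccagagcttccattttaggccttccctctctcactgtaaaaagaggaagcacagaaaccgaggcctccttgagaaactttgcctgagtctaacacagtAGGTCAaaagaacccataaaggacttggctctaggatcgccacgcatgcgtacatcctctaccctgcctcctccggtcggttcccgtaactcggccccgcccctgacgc

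Windows of 300 bases, from 250 before to 50 after the start, were found for 33 of the 42 genes, as 39 windows in all. Abcd2, Abcd4, Amacr, Ephx2, Hsd17b4, Nudt12, Pex2, Pex19 and Pxmp2 had none. The full repeat, AGGTCA and AGGTCA with any 1 base between them, searched on both strands, was in 0 of the 39 windows and in 0.0396% of all 32851 windows of the table. With up to 2 mismatches in its fixed letters it was in 2 of 39, and in 3.86% of all windows. The single element AGGTCA was in 5 of 39, in Slc27a2, Scp2, Phyh, Cat and Pex11g, and in 16.3% of all windows, so these shares lie near those of the table. The single element starts 36 bases after the start in Phyh, and before it in Slc27a2, Scp2, Cat and Pex11g. Of these genes Cat and Pex11g did not pass the test. The mismatched repeat of Cat includes its single element, and that of Acox2 starts 9 bases after the start. The 2 mismatched repeats are printed in capitals with 8 bases on either side, from chr2:103485337-103485365 (minus strand) for Cat and chr14:8258810-8258838 (minus) for Acox2.
Cat: actctcagAGGTCAGAGAACAccagcagg
Acox2: gctgtcccAGGACAGAGGTGAgtcaagag
Neither Cat nor Acox2 passed the test. A match is a description of letters in this window and not a site of binding.

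Import receptors and the docking complex come first among the peroxins. Pex5 is the receptor that carries matrix enzymes with a C-terminal signal, and Pex13 and Pex14 dock it at the membrane. Pex5 rose, at 1570, 1012, 1246 and 1282 in knockout 1 to 4, against 749.4, 793.2 and 676.6 in wild type 1 to 3. All 4 knockout arrays lay above the wild type arrays. Pex5 differed by a log2 fold change of 0.76 ± 0.17 (SE; limma adjusted p = 0.0384), and the second probe set of Pex5 gave 0.76 ± 0.15 (limma adjusted p = 0.0241). Pex13 rose too, at 3723, 2870, 2694 and 3155 in knockout, against 1482, 2051 and 2041 in wild type. Its groups did not overlap, and the log2 fold change was 0.74 ± 0.17 (limma adjusted p = 0.0388). A second and dim probe set of Pex13, not tested, was at -0.24, and the mean of both gave 0.25, not past the threshold (limma adjusted p = 0.476). Pex14, their partner in docking, had 2713, 1878, 1146 and 2176 in knockout, against 1716, 2069 and 1874 in wild type. Its groups overlapped, with knockout 3 lowest and knockout 1 highest of all 7 arrays, and the log2 fold change was 0.0056 ± 0.25 (limma adjusted p = 0.992). Among runs without 1 array Pex5 passed without knockout 2 and failed without any other (highest limma adjusted p = 0.170), and Pex13 passed only without knockout 3 (highest 0.117). Neither passed without the filter, with eBayes without a trend or with the replicate block.

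Pex7, the receptor for the N-terminal targeting signal, did not pass, at 2266 ± 431 in knockout and 1651 ± 178 in wild type (SD, n = 4 and 3; log2 fold change 0.44 ± 0.16, limma adjusted p = 0.153). Every knockout array of Pex7 was above every wild type array, and knockout 3, at 2911, stood above the 2013 to 2083 of the other knockout arrays. The recycling complex that takes Pex5 out of the membrane includes the ATPase Pex6, its anchor Pex26 and the ubiquitin ligases Pex2 and Pex10. None of these passed, and their log2 fold changes were 0.42 for Pex6, 0.41 for Pex26, 0.03 for Pex2 and -0.17 for Pex10. Pex26 nevertheless had groups that did not overlap, at 581 ± 22.9 in knockout and 433 ± 41.9 in wild type (limma adjusted p = 0.133). The 5 probe sets of Pex6 ran from 0.33 to 0.42. In the unadjusted tests 4 of the 13 peroxins were higher at p under 0.05 and 0 lower, the 2 called included, against 12.3% and 10.2% of all genes tested.

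Membrane assembly rests on Pex3, Pex16 and Pex19, of which Pex19 is the chaperone of membrane proteins and Pex3 its dock. Pex19 had 4067, 3157, 1774 and 4047 in knockout, against 2170, 2284 and 1954 in wild type. Knockout 3 was the lowest of all 7 arrays in Pex19 and the other 3 were the highest. The log2 fold change was 0.54 ± 0.26 (limma adjusted p = 0.261), its 3 probe sets ran from 0.33 to 0.59, and without knockout 3 it was 0.80 and passed. Pex16 was at 0.21 by its brighter probe set and at -0.45 by the dimmer one, and Pex3 was at 0.11, none past the threshold. Pex11a and Pex11g take part in elongation and division. Pex11a, a known responder to peroxisome proliferators in rodents, had 1608, 1089, 1977 and 1686 in knockout, against 1358, 1227 and 1762 in wild type, so the groups overlapped. Its log2 fold change was 0.12 ± 0.21 (limma adjusted p = 0.797). Pex11g was at 0.45 ± 0.26, with knockout 3 at 1153 and the other knockout arrays at 536.4 to 566.4.

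**Figure D2:**
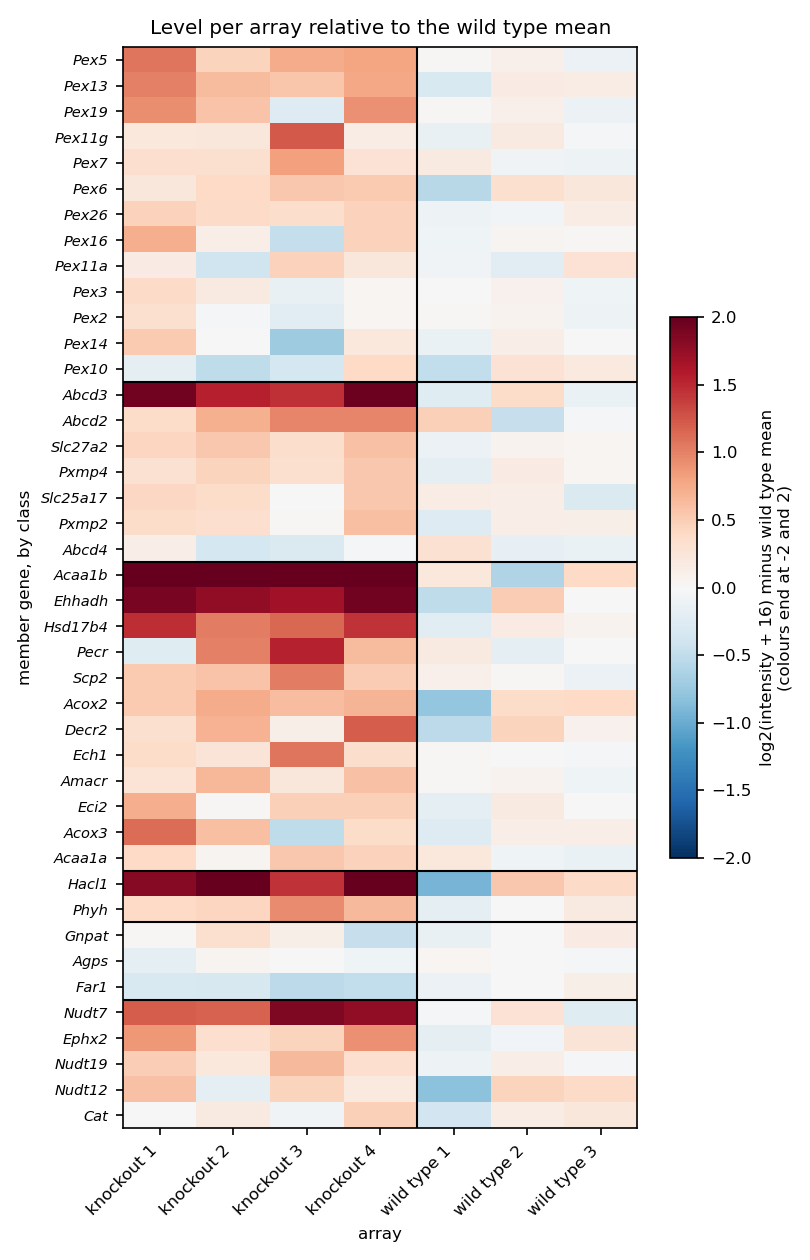
Level of each gene in each array as log2(intensity + 16) minus the mean of the wild type arrays, with genes grouped by class between black lines and knockout arrays left of the vertical line. Acaa1b, Ehhadh, Abcd3 and Hacl1 are dark red in all 4 knockout arrays, wild type 1 is blue in Hacl1 and Acox2, and Far1 is blue in all 4 knockout arrays.

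The class of membrane transporters holds transporters of acyl chains and also other membrane proteins. Abcd3, a transporter of branched and dicarboxylic acyl chains and of bile acid precursors, rose by more than any other in its class. Its intensities were 17091, 13140, 12243 and 17298 in knockout, against 3779, 5760 and 4058 in wild type. All 4 knockout arrays lay far above the 3 wild type arrays, and the log2 fold change was 1.73 ± 0.18 (limma adjusted p = 0.0020), or 3.31-fold. Slc27a2, an acyl-CoA synthetase of very long chains in the peroxisome membrane and the endoplasmic reticulum, rose by less. It had 18804, 20292, 17867 and 21028 in knockout, against 12842, 14725 and 14354 in wild type, without overlap. The log2 fold change of Slc27a2 was 0.48 ± 0.10 (limma adjusted p = 0.0286), and without 1 array it passed in 2 of 7 runs (highest limma adjusted p = 0.120), those without knockout 1 or knockout 3. Slc27a2 also failed without the filter, with eBayes without a trend and with the replicate block (highest limma adjusted p = 0.124).

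Abcd2, a transporter of very long and unsaturated chains, was split between its probe sets. By the brightest it had 1708, 2173, 2628 and 2627 in knockout, against 1855, 960.7 and 1308 in wild type, and knockout 1 lay under wild type 1. That log2 fold change was 0.76 ± 0.23 (limma adjusted p = 0.0951). The next probe set of Abcd2 had 1057, 1540, 1587 and 1778 in knockout, against 700.0, 318.2 and 586.8 in wild type. Its groups did not overlap, and it was 2.82-fold higher (limma adjusted p = 0.0177). The third was at 1.26 ± 0.48 and did not pass, and the last was too dim to be tested. Pxmp4 at 0.40, Slc25a17, the carrier of coenzyme A and other nucleotides, at 0.33, and the channel protein Pxmp2 at 0.33 did not pass either. Abcd4, which is known to sit in lysosomes and to take part in cobalamin transport, was at -0.14. Of these 4 genes Pxmp4 had every knockout array above every wild type array, at 3312 to 3885 against 2342 to 2992.

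Beta oxidation held 4 of the 11 genes that rose, out of 11 tested in this class, against 3.09% of all genes tested. All 4 were among the 7 tested genes of its central steps, and 0 of the 4 auxiliary genes passed. The median log2 fold change was 0.65 for the central steps and 0.55 for the auxiliary genes, and whether these differ was not tested. The central steps are oxidation, hydration with dehydrogenation, and thiolysis. Of the oxidases, Acox2 did not pass and Acox3 was not tested. Ehhadh, the bifunctional enzyme of straight and dicarboxylic chains, had 20122, 18412, 17290 and 20624 in knockout, against 3770, 7669 and 5398 in wild type. The 4 knockout arrays lay close together, far above all wild type arrays, with a log2 fold change of 1.82 ± 0.20 (limma adjusted p = 0.0024). Hsd17b4, the bifunctional enzyme of branched chains and bile acid precursors, had 9396, 6904, 7496 and 9209 in knockout, against 2880, 3771 and 3553 in wild type. It rose by 1.27 ± 0.15 on the log2 scale (limma adjusted p = 0.0032), and its other probe set by 0.99 ± 0.17 (limma adjusted p = 0.0142). Both enzymes of this step were thus higher, the one for straight and the one for branched chains.

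The thiolase gene Acaa1b had the largest fold change of the 42. Its intensities were 12050.5, 16255, 14570 and 19061 in knockout, against 2216, 1252 and 2527 in wild type. The lowest knockout array was far above the highest wild type array, with a log2 fold change of 2.99 ± 0.23 (limma adjusted p = 0.000754), or 7.92-fold. Acaa1a encodes a thiolase very similar to it and had 676.9, 525.8, 742.6 and 706.7 in knockout, against 591.2, 478.1 and 464.7 in wild type. These groups overlapped, and the log2 fold change was 0.36 ± 0.17 (limma adjusted p = 0.257). The second probe set of Acaa1a did not overlap, at 286.1 to 464.0 in knockout against 179.4 to 239.8 in wild type, and was at 0.83 ± 0.21 (limma adjusted p = 0.0584). Both probe sets of Acaa1a are of the type whose probes can match other transcripts (suffix x), so signal of the 2 thiolase genes may not be separate. Scp2 encodes the thiolase of branched chains and a sterol carrier protein from 1 gene. By the brightest probe set it rose, at 18705, 19194, 26437 and 18464 in knockout against 13869, 13171 and 11981 in wild type. On the log2 scale this was 0.66 ± 0.13 (limma adjusted p = 0.0296), with knockout 3 apart from the other knockout arrays. Among the 3 dimmer probe sets of Scp2, values of 0.27 and 0.33 stood beside one of -0.42, with 649.5 to 683.7 in knockout against 859.7 to 934.1 in wild type, all knockout arrays below. None of the 3 passed, and the mean of all 4 gave 0.21 (limma adjusted p = 0.401). Without 1 array Scp2 passed in 2 of 7 runs (highest limma adjusted p = 0.143), those without knockout 1 or knockout 3. It also failed without the filter, with eBayes without a trend and with the replicate block.

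**Figure D3:**
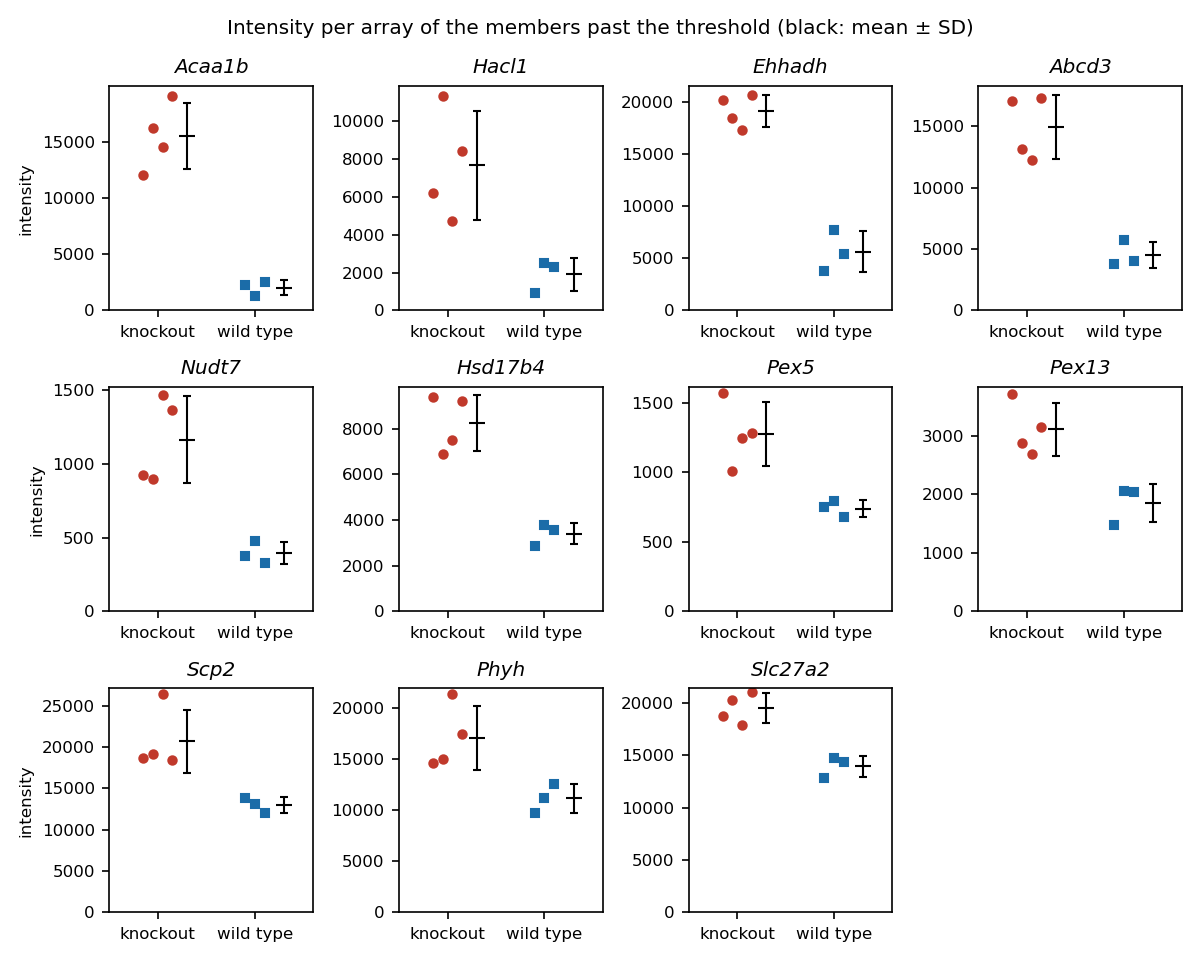
Intensity per array (y axis, linear, from 0) of the 11 genes past the threshold, with 4 knockout arrays as red circles left of 3 wild type arrays as blue squares, and the mean ± SD in black beside each. No group overlaps in any panel, and in Acaa1b, Ehhadh and Abcd3 the gap is wide beside the spread of each group.

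The other enzymes of the central steps did not pass. Acox2, the oxidase of bile acid precursors and branched chains, had 3065, 3594, 3273 and 3414 in knockout, against 1246, 2757 and 2827 in wild type. The groups did not overlap, and wild type 1 lay far under the other 2. The log2 fold change of Acox2 was 0.64 ± 0.25 (limma adjusted p = 0.178), and 0.25 without wild type 1. Acox3, not tested, had 38.8 to 153.9 in knockout and 49.2 to 69.3 in wild type. Amacr, the racemase that turns branched chains to the form the oxidases accept, was at 5114 ± 759 in knockout and 3742 ± 205 in wild type (SD, n = 4 and 3; 0.44 ± 0.14, limma adjusted p = 0.101), without overlap. The 4 auxiliary enzymes handle double bonds. Pecr, a trans-2-enoyl-CoA reductase, was at 0.73, Decr2, the dienoyl-CoA reductase, at 0.59, Ech1, a dienoyl-CoA isomerase, at 0.51 and Eci2, an enoyl-CoA isomerase, at 0.43. With limma 0 of these 4 passed, and 2 were higher at an unadjusted p under 0.05, against 12.3% of all genes tested. In Ech1 the knockout arrays were at 9070 to 15888, with knockout 3 highest, against 7449 to 7707 in wild type. The knockout arrays of Pecr ran from 861.5 to 3014, below and above the 896.2 to 1166 of wild type.

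Alpha oxidation removes 1 carbon from branched chains such as phytanic acid before beta oxidation can act. Hacl1, the lyase that cleaves the 2-hydroxyacyl chain, had 6184, 11328, 4727 and 8405 in knockout, against 901.8, 2529 and 2271 in wild type. The groups did not overlap, though both spread widely, and the log2 fold change was 2.06 ± 0.37 (limma adjusted p = 0.0178), or 4.16-fold. It did not pass without wild type 3 or without knockout 4 (highest limma adjusted p = 0.0564), and it was 1.59 without wild type 1. Phyh, the hydroxylase that acts before it, had 14616, 14982, 21397 and 17483 in knockout, against 9742, 11232 and 12580 in wild type. Phyh rose by 0.60 ± 0.15 on the log2 scale (limma adjusted p = 0.0493), at the edge of the threshold. It passed only without knockout 1 among runs that left out 1 array (highest limma adjusted p = 0.152), and it failed under 7 of 10 other settings, median scaling and an offset of 1 among them (highest limma adjusted p = 0.109).

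The 3 ether lipid genes had log2 fold changes at or below 0, though Agps was at 0.013 and Gnpat at 0.067 under median scaling. Far1 makes the fatty alcohol, Gnpat acylates dihydroxyacetone phosphate and Agps exchanges the acyl chain for the alcohol. Far1 had 661.9, 653.2, 566.3 and 575.4 in knockout, against 752.4, 821.0 and 885.4 in wild type. All 4 knockout arrays lay below the wild type arrays, with a log2 fold change of -0.41 ± 0.14 (limma adjusted p = 0.139), so Far1 did not pass. The 4 further probe sets of Far1 ran from -0.35 to -0.08. Gnpat was at -0.0016 ± 0.19, with 752.4 to 1306 in knockout against 936.5 to 1167 in wild type. Agps was at -0.06 ± 0.14 by its brightest probe set, and its 2 others were at -0.40 and -0.55. With limma 0 of the 3 genes passed. At an unadjusted p under 0.05, 1, Far1, was lower, against 10.2% of all genes tested. Whether the ether lipid genes differ from the oxidation genes in their change was not tested.

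Nudt7, Nudt12 and Nudt19 are hydrolases of the nudix family, of which Nudt7 and Nudt19 are known to cleave coenzyme A and its acyl derivatives and Nudt12 the nucleotides NADH and NAD. Nudt7 rose, at 928.1, 900.6, 1466 and 1369 in knockout, against 379.1, 478.4 and 327.9 in wild type. The groups lay far apart. On the log2 scale this was 1.51 ± 0.22 (limma adjusted p = 0.0079), and its next probe set gave 1.57 ± 0.17 (limma adjusted p = 0.0025). Without wild type 3 it narrowly failed (limma adjusted p = 0.0501). Nudt19 was at 4337 ± 563 in knockout and 3219 ± 286 in wild type, and its 2 probe sets, at 0.42 and 0.46, did not pass. Nudt12 was at 0.26 ± 0.31, with wild type 1 at 207.5 and wild type 2 and 3 at 520.2 and 501.4. Catalase, encoded by Cat, breaks down the hydrogen peroxide that the oxidases make. It had 8457, 9519, 8034 and 11698 in knockout, against 6497, 9330 and 9890 in wild type, with much overlap. The log2 fold change of Cat was 0.15 ± 0.17 (limma adjusted p = 0.677), and its other probe set was at 0.66 ± 0.18 (limma adjusted p = 0.0717). Ephx2, an epoxide hydrolase of cytosol and peroxisome, had 12347, 8527, 9159 and 12681 in knockout, against 5873, 6502 and 8048 in wild type. Its groups did not overlap, and its log2 fold change of 0.64 ± 0.17 did not pass (limma adjusted p = 0.0643).

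**Figure D4:**
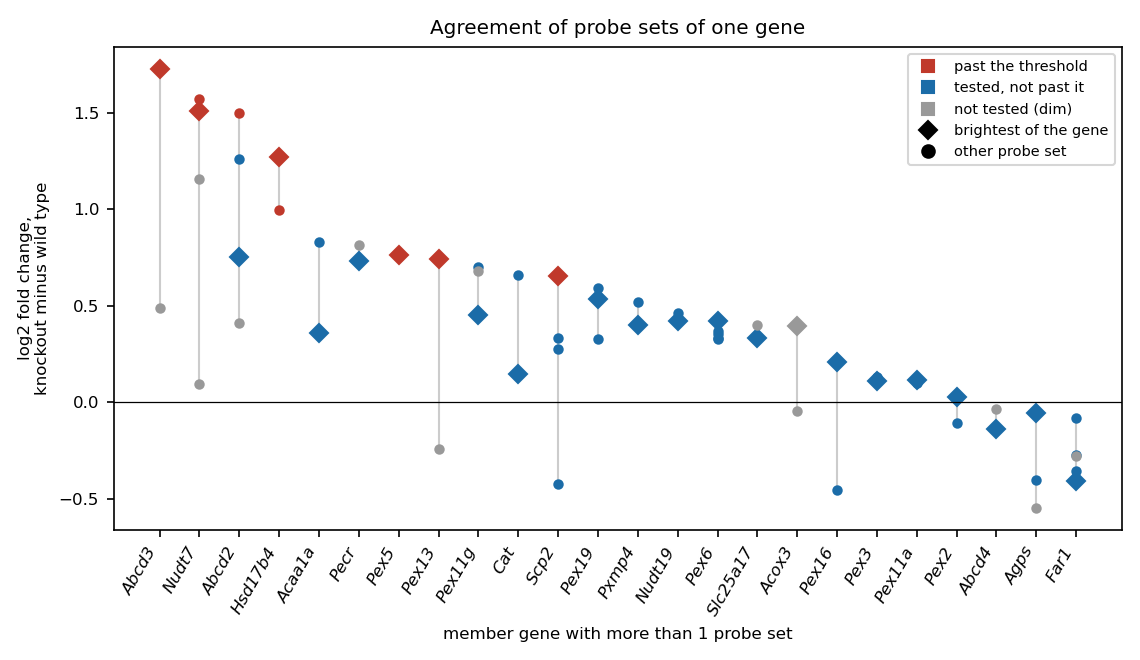
Log2 fold change, knockout minus wild type (y axis), of every probe set of the 24 genes with more than 1, with the brightest as a diamond and colours for the test. Both probe sets of Pex5 and of Hsd17b4 are past the threshold, while Scp2, Pex16, Pex13, Pex2 and Acox3 have probe sets on both sides of 0.

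Probe sets of 1 gene mostly pointed the same way. Of 27 other tested probe sets 24 had the sign of the brightest of their gene and 3 the opposite, 1 each of Scp2, Pex16 and Pex2. Among genes with 2 tested probe sets, Pex5 and Hsd17b4 had both called, as did the 2 tested ones of Nudt7.

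Other genes of peroxisomes were taken from a list of 41, of which 37 had a probe set and 32 were tested. With limma 12 were higher, 0 lower and 20 did not pass, and at an unadjusted p under 0.05 the counts were 17 higher and 3 lower. Of the 37 log2 fold changes 25 were above 0 and 12 below, with a median of 0.57. In 17 genes every knockout array lay above every wild type array, and in 3, Pmvk, Mpv17l and Mff, every one lay below. The 17 include Acot5, which was too dim to be tested. Over all tested genes the shares without overlap were 11.7% above and 10.4% below. The shares of all genes tested given above are the background of the calls and of the unadjusted counts. The count of 12 was 7, 6 and 5 without wild type 1, 2 and 3. Crot, which exchanges coenzyme A for carnitine on medium chains, had 7489, 9162, 4425 and 11923 in knockout, against 1037, 1242 and 1400 in wild type. Acot3 and Acot4, thioesterases that release acids from coenzyme A, were at 2.84 ± 0.31 and 2.34 ± 0.24 on the log2 scale. In Crot, Acot3 and Acot4 the groups did not overlap. Acot3 and Acot4 are similar genes, and their signals may not be separate.

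Proteases of the matrix were among the others that rose. Lonp2, the Lon protease of peroxisomes, had 2489, 2856, 2482 and 2780 in knockout, against 697.6, 1197 and 1155 in wild type (log2 fold change 1.41 ± 0.19, limma adjusted p = 0.0062). Tysnd1, which cuts imported beta oxidation enzymes, had 1067, 1447, 1116 and 1132 in knockout, against 615.4, 581.5 and 577.3 in wild type (0.98 ± 0.15, limma adjusted p = 0.0105). Both proteases thus lay above wild type in all 4 knockout arrays. Acad11, an acyl-CoA dehydrogenase, rose by 1.31 ± 0.18 on the log2 scale (limma adjusted p = 0.0064). The other 6 called were Slc27a4, Tmem135, Acbd4, the thioesterase Acot8, Baat and Idh1, at log2 fold changes from 0.75 for Acot8 to 1.34 for Idh1. Fission factors did not pass, at -0.40 for Mff, -0.09 for Dnm1l and -0.07 for Fis1. Hao1, the glycolate oxidase, did not pass, at 763.0, 3669, 8686 and 4122 in knockout, against 2761, 3258 and 2564 in wild type.

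**Figure D5:**
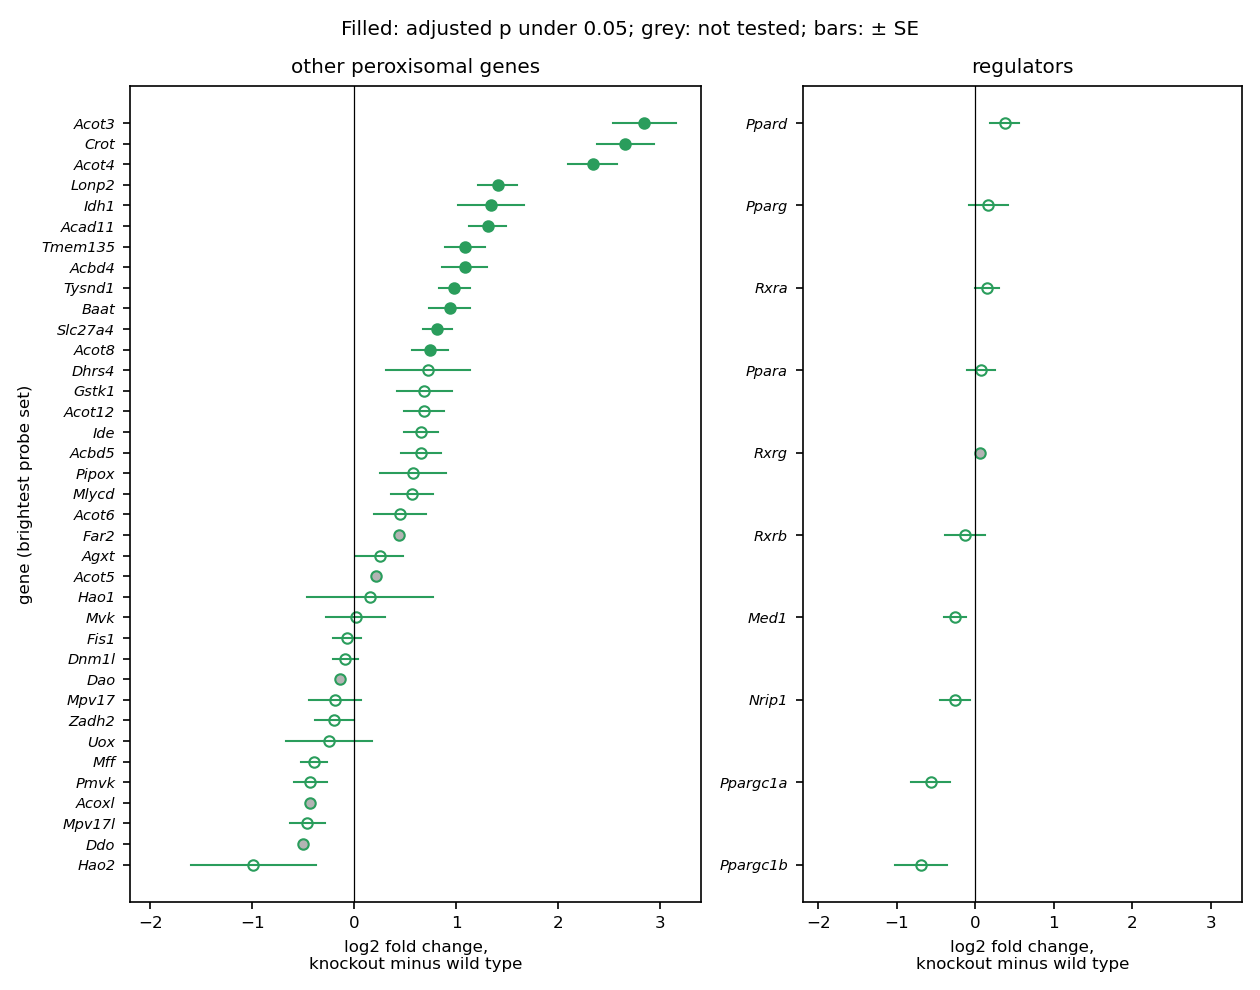
Log2 fold change, knockout minus wild type (x axis, bars of 1 standard error), of 37 other peroxisomal genes (left) and 10 regulators (right). Of the left panel 12 genes are filled, all right of 0, from 0.75 to 2.84, and 0 regulators are filled.

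Among 12 regulators of peroxisomal genes 10 had a probe set and 9 were tested, and 0 passed with limma. At an unadjusted p under 0.05, 0 were higher and 1 lower, against 12.3% and 10.2% of all genes tested. Ppara, which encodes PPAR alpha, had 3944, 4152, 2723 and 4746 in knockout, against 3249, 3664 and 3972 in wild type. The groups overlapped, and the log2 fold change was 0.08 ± 0.18 (limma adjusted p = 0.849). Rxra, its partner on DNA, was at 0.15 ± 0.16, and the related receptors Ppard, Pparg and Rxrb were at 0.38, 0.17 and -0.13. The coactivators Ppargc1a and Ppargc1b were at -0.57 ± 0.25 and -0.69 ± 0.33, Med1 at -0.26 and the corepressor Nrip1 at -0.26. Ppard had every knockout array above every wild type array, at 279.6 to 390.7 against 215.8 to 268.4. Med1 had every one below, at 969.6 to 1157.5 against 1210.8 to 1392.6. Over all tested genes the shares without overlap were 11.7% above and 10.4% below. Rxrg was too dim to be tested.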

How the data were processed

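Messenger RNA was measured on 7 Affymetrix arrays, 1 per liver, and sample titles gave the groups and replicate numbers. The deposited values are intensities on a linear scale; GCOS is named per the submitters' processing notes, without a version, and the sources used here do not give how probes were summarised. Every array of the deposited intensities had been scaled to 1 common trimmed mean, which cannot show a change of total RNA. Array medians ran from 92.7 to 108.3, and array pairs correlated at 0.93 to 0.985. The number of arrays limits precision.

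After 64 control probe sets were left out, the intensities as deposited were taken to log2(intensity + 16). The 22518 probe sets whose mean exceeded the table's median were fitted with limma 3.58.1 in R 4.3.3 (lmFit, eBayes with trend), without covariates, and p-values were adjusted over all of them. The fit was tested on simulated data. Gene names are those of the platform annotation, where 34958 of 45101 probe sets have 1 symbol, 932 several and 9211 none. Genes named in the text are all 42 members, and from the other lists the 6 of smallest p, the others called and examples not called. Hao1, Pmvk and Mpv17l are named with their values already known. The members and lists were chosen with earlier results of these data known. Same-numbered samples did not deviate together (correlations of 0.09, -0.06 and 0.06), so the numbers were not taken to pair livers.

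Upstream windows come from RefSeq on GRCm38.p6. Protein sequences were not analysed here. The targeted transcript is not reported, and the labels were not checked by it. Alternatives were other offsets, filters, scalings, probe set rules, a fit without a trend, the replicate block, other thresholds and leaving out each array.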

Additional observations from a re-analysis of the deposited data

Results flagged for a closer look

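In 4 of the 41 tested genes 1 knockout array stood far from the other 3, by Dixon's test of the gap relative to the range, and in each of them it was knockout 3 at the high end. Such gaps are met by chance in about 1 of 20 groups, and they were met in 5.35% of all tested probe sets, against 9.76% of these genes. Pex7 had 2911 in knockout 3 and 2013 to 2083 in the other knockout arrays. Pex11g had 1153 in knockout 3 and 536.4 to 566.4 in the others. Scp2 had 26437 in knockout 3 and 18464 to 19194 in the others. Ech1 had 15888 in knockout 3 and 9070 to 9742 in the others. Knockout 3 also had the highest 3' to 5' ratios of the control transcripts, and their part in these values was not tested.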

How the results depend on the processing

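The 11 genes called higher became 6 with eBayes without a trend, 6 without the filter and 5 at an adjusted p under 0.01, and ran from 4 to 10 when 1 array was left out, fewest without wild type 3. Calls over the whole table, 955 probe sets, became 584 without a trend, 473 without the filter, 142 at an adjusted p under 0.01 and 2032 under 0.10, and ran from 127 to 1006 when 1 array was left out. The 12 other peroxisomal genes called became 6 with each gene's probe sets averaged and 5 under 0.01, and ran from 5 to 11 without 1 array. No gene of either list was called lower under any of these settings. The median log2 fold change of the peroxins, 0.41, was 0.25 with the mean of all probe sets and 0.17 to 0.42 without 1 array (0.17 without wild type 1, 0.32 without knockout 3), and that of alpha oxidation, 1.33, was 1.05 to 1.47. With the replicate block, a fit for a pairing that the numbers do not show, 351 probe sets, 6 member genes and 6 other peroxisomal genes were called. No wild type array has the number 4, so knockout 4 adds nothing to the difference in this fit. Its class medians and log2 fold changes are those of the run without knockout 4, such as Pex14 at -0.062 and Gnpat at 0.15. Both settings are counted in the gene values that follow. Of 797 gene values under all alternatives 718 kept direction and side of the threshold, 58 no longer passed, 4 newly passed and 17 changed sign. The sign changes were all in genes not called. They were Pex2 at -0.040 and Pex16 at -0.12 with the mean of all probe sets, Agps at 0.013 and Gnpat at 0.067 under median scaling, and Pex14 at -0.0057 after quantile normalization. Without 1 array, Pex2 ran from -0.065 to 0.11, Pex14 from -0.17 to 0.24, Gnpat from -0.11 to 0.15, Abcd4 from -0.23 to 0.012, Nudt12 from -0.15 to 0.48 and Cat from -0.042 to 0.26. The cause was not tested. Acaa1a had no value without probe sets of the s and x types. Dim probe sets, 13 of 81, had no test.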
